A study of Mus musculus with 32 samples.

Results

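The interferon response and antigen presentation genes described here are a list of 39 genes, of which 37 were measured on the array, out of 12393 genes with a probe set of their own. A member was measured where the platform annotation gave a probe set its symbol and no other, which left 65 probe sets: 23 members had 1 and 14 had more than 1. Isg15 shared its probe set with Gm9706 and Ddx58 was matched to none, so both were dropped. The study set control mice beside mutants deficient in Cckbr, a receptor for the neuropeptide cholecystokinin (KO mice below). Either kind was sham-operated or given CCI, a chronic constriction of a peripheral nerve that serves as a model of neuropathic pain, and both medulla and midbrain were sampled from every one of the 16 animals. This made 8 groups with 4 arrays each: control sham, control CCI, KO sham and KO CCI in each region. Strain, age, sex, the time after injury and the construction of the Cckbr allele are not given in the sources used here.

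Interferons act through paired surface receptors and JAK kinases. Type I interferon acts on genes with interferon-stimulated response elements, through a complex that includes STAT2 and IRF9, and interferon gamma acts on genes with gamma-activated sites. The induced genes include antiviral effectors, large and immunity-related GTPases, and the machinery that cuts proteins into peptides and presents them on major histocompatibility complex (MHC) molecules. In the healthy brain most of these genes are kept at a low level, and Irf8 and others are induced in spinal microglia after nerve injury.

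Levels below are the deposited linear intensities, in which array medians lay between 91.1 and 100.09 and 2.15% of values were at or below 0. Of the 37 members, 25 had a mean below the median of all probe sets on their probe set of highest mean. Differences are on the scale of log2(intensity + 16) after quantile normalization and understate the change of dim genes. Each was tested with limma's moderated test over 22626 probe sets, and rose or fell means a Benjamini-Hochberg adjusted p under 0.05. The region labels held: genes marking midbrain summed to 1218 to 1665 in midbrain and 297 to 509.6 in medulla, and those marking medulla to 780.0 to 2149 in medulla and 84.8 to 149.98 in midbrain. Array KO sham midbrain 2 had a log2 ratio of 3' to 5' Actb probe sets of 1.60, against at most 0.775 elsewhere. On the first principal component of midbrain it read -36.0 and KO sham midbrain 4 read -26.4, the lowest values. These 2 are the midbrain arrays said below to stand apart. The spread was gradual: control CCI midbrain 3 came next at -16.2. KO sham midbrain 1 and 3 held the other end, at 20.1 and 21.8. KO sham medulla 3 lay apart in its own region, at 60.6 against at most 2.30 on other medulla arrays. Medulla 3 and midbrain 4 carry consecutive array numbers, which were taken here to mark 1 animal, although their title numbers differ.

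Upstream sequence from RefSeq (GRCm38.p6) was available for 29 of the 37 members, as windows of 250 bases before and 50 after a gene start. The core of the interferon-stimulated response element was searched on both strands as GAAA, any 2 bases and GAAA again, and 14 of 35 member windows held it, against 3.44% of all 32851 windows. The palindromic gamma-activated site TTCNNNGAA, searched on both strands and free to overlap the other motif, was in 10 member windows (28.6%) against 8.3% of all. Members were listed as interferon genes, so these shares describe the list and are no finding of the arrays. The 250 bases before the start are printed for 5 members on which later results turn, in the gene's own direction, with the response element cores in capitals. B2m, Ifit3 and Rsad2 hold a core, and H2-K1 and Psmb9 are shown as members whose region results matter here and whose window holds none. B2m lies on the plus strand at chr2:122147437-122147686, Ifit3 on the plus strand at chr19:34583279-34583528 and Rsad2 on the minus strand at chr12:26456453-26456702. H2-K1 and Psmb9 lie on the minus strand at chr17:34000348-34000597 and chr17:34187331-34187580.
B2m: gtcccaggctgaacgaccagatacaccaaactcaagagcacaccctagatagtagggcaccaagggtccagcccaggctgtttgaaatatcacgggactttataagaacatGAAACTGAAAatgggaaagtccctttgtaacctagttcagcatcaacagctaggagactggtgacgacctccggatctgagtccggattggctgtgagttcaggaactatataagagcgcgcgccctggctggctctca
Ifit3: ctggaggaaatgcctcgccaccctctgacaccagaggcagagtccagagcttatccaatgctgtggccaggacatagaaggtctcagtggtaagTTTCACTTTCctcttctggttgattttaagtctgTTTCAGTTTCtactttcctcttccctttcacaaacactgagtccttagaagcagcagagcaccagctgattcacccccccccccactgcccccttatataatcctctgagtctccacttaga
Rsad2: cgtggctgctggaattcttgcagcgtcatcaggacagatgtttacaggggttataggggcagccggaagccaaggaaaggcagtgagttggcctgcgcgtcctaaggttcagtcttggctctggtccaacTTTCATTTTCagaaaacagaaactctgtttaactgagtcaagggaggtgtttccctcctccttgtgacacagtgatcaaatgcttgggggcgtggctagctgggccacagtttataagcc
H2-K1: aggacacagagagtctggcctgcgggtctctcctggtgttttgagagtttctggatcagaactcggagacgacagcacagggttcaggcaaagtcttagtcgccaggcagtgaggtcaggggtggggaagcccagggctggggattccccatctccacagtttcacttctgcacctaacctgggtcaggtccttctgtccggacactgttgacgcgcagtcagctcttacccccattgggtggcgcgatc
Psmb9: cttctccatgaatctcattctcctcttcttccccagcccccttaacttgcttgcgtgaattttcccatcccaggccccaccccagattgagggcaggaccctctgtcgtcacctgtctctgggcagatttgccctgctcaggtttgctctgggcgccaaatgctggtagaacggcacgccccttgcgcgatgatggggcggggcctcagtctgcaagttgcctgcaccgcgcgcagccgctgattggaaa
The core in B2m began 139 bases before the start, those in Ifit3 156 and 122 bases before it, and that in Rsad2 120 bases before it. A match is a description of the letters and not a site of binding, and a window without one may still hold a variant of the element. In the arrays the members with a core differed: 1 probe set of B2m was lower in midbrain, Ifit3 was higher there, and Rsad2 varied from animal to animal. Of those without one, H2-K1 was lower on 2 probe sets in midbrain and Psmb9 was higher.

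Of the comparisons by genotype, operation and region, only midbrain against medulla, averaged over genotype and operation, brought members past the threshold with all arrays in the fit. Of the 65 member probe sets 11 passed, and the background was 21.5% of all probe sets. Lower in midbrain were 7 (background 10.9%), from the MHC class I presentation genes H2-K1, H2-D1, B2m and Tap2. Those of H2-K1 and H2-D1 are _x_at sets with shared probes, so the 7 are not separate signals. Higher were 4 (background 10.5%): Ifit2, Ifit3, Iigp1 and Psmb9. The median difference was -0.05 over the member probe sets and 0.01 over all probe sets. The share called was thus no larger than over the array, and what the data give is the direction and size of single members.

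**Figure D1:**
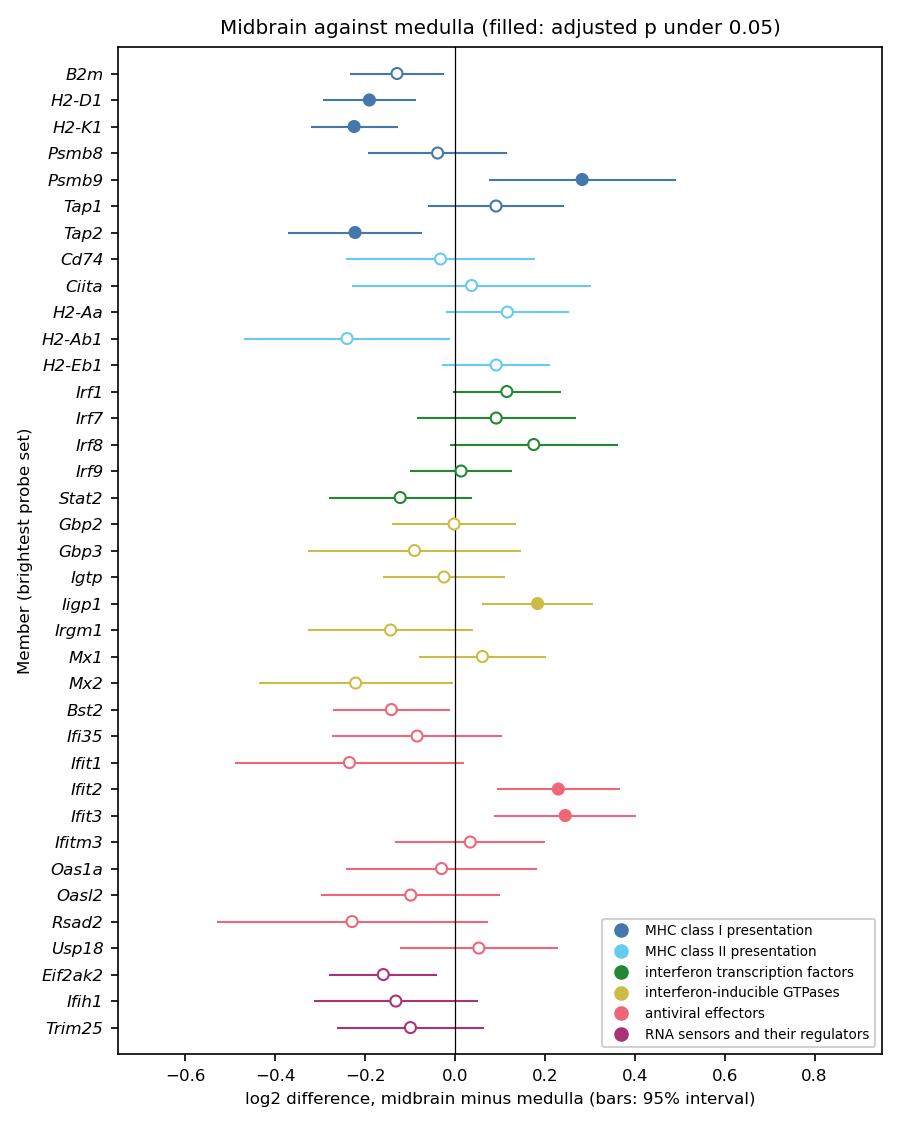
Log2 difference between midbrain and medulla for the 37 members, each on its probe set of highest mean, with 95% intervals and colours by role. Filled points passed the threshold: H2-K1, H2-D1 and Tap2 lie left of 0 and Psmb9, Iigp1, Ifit2 and Ifit3 right of it.

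Among the presenting molecules of MHC class I, 2 of 4 probe sets of H2-K1, 3 of 9 of H2-D1 and 1 of 2 of B2m were lower in midbrain, and the others did not pass. H2-K1, a classical class I heavy chain, read 397 to 539.6 in medulla (median 438, n = 16) and 319 to 463 in midbrain (median 374) on its probe set 1451931_x_at. Most midbrain arrays were below the medulla median, the ranges overlapped, and 14 of 16 animals were lower in midbrain. The log2 difference was -0.22 (SE 0.05, adjusted p = 6.89e-04), or 1.17-fold. A further H2-K1 probe set, 1425336_x_at, fell by 0.15 on the log2 scale (SE 0.04, adjusted p = 0.0144) with 15 of 16 animals lower, and the remaining pair did not pass. Without KO sham midbrain 2 and 4, the midbrain arrays that stood apart, the call of 1425336_x_at was lost (-0.12, adjusted p = 0.0520).

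H2-D1, the other classical heavy chain of these arrays, read 479 to 639.6 in medulla (median 525) and 391 to 561 in midbrain (median 448) on 1425545_x_at, with 13 of 16 animals lower in midbrain. Its difference was -0.19 (SE 0.05, adjusted p = 0.00655). The probe sets 1451784_x_at and 1451683_x_at fell as well, by 0.20 each on the log2 scale (adjusted p = 0.00277 and 0.0137), in 14 of 16 animals each. The other 6 of its 9 probe sets did not pass, and they did not share a direction: 1451934_at was higher in midbrain in 12 of 16 animals (0.14, SE 0.07, adjusted p = 0.176) and 1452544_x_at in 10 of 16 (0.14, SE 0.13, adjusted p = 0.507). Class I heavy chains are near-identical in parts, and the _x_at sets hold probes shared between them, so which heavy chain fell is uncertain.

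B2m, the light chain that every class I molecule needs, read 763 to 1054 in medulla (median 952) and 692 to 940.3 in midbrain (median 849) on 1449289_a_at. It was lower in midbrain in 15 of 16 animals, with a difference of -0.17 (SE 0.05, adjusted p = 0.0124). On its probe set of highest mean, 1452428_a_at, the difference was -0.13 (SE 0.05, adjusted p = 0.0699), with 14 of 16 animals lower. The lowest value there, 741, came from KO sham midbrain 2, the array with the high Actb ratio.

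Tap2, a subunit of the peptide transporter that loads class I molecules, read 73.6 to 141 in medulla (median 115) and 69.6 to 122 in midbrain (median 94.1). It fell by 0.22 on the log2 scale (SE 0.07, adjusted p = 0.0265), and 13 of 16 animals were lower. Its partner Tap1 did not pass on any of 4 probe sets, with medians of 21.7 in medulla and 27.4 in midbrain on 1416016_at. The immunoproteasome subunits parted as well. Psmb8 read medians of 37.7 and 34.0 and did not pass. Psmb9 read 14.2 to 56.7 in medulla (median 33.9) and 28.3 to 65.4 in midbrain (median 43.8), with 11 of 16 animals higher and a difference of 0.28 (SE 0.10, adjusted p = 0.0457). Leaving out single arrays ended the Psmb9 call in 19 of 32 cases (adjusted p up to 0.0822), as did the animal as a fixed block (0.0734) and median centring (0.0627).

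**Figure D2:**
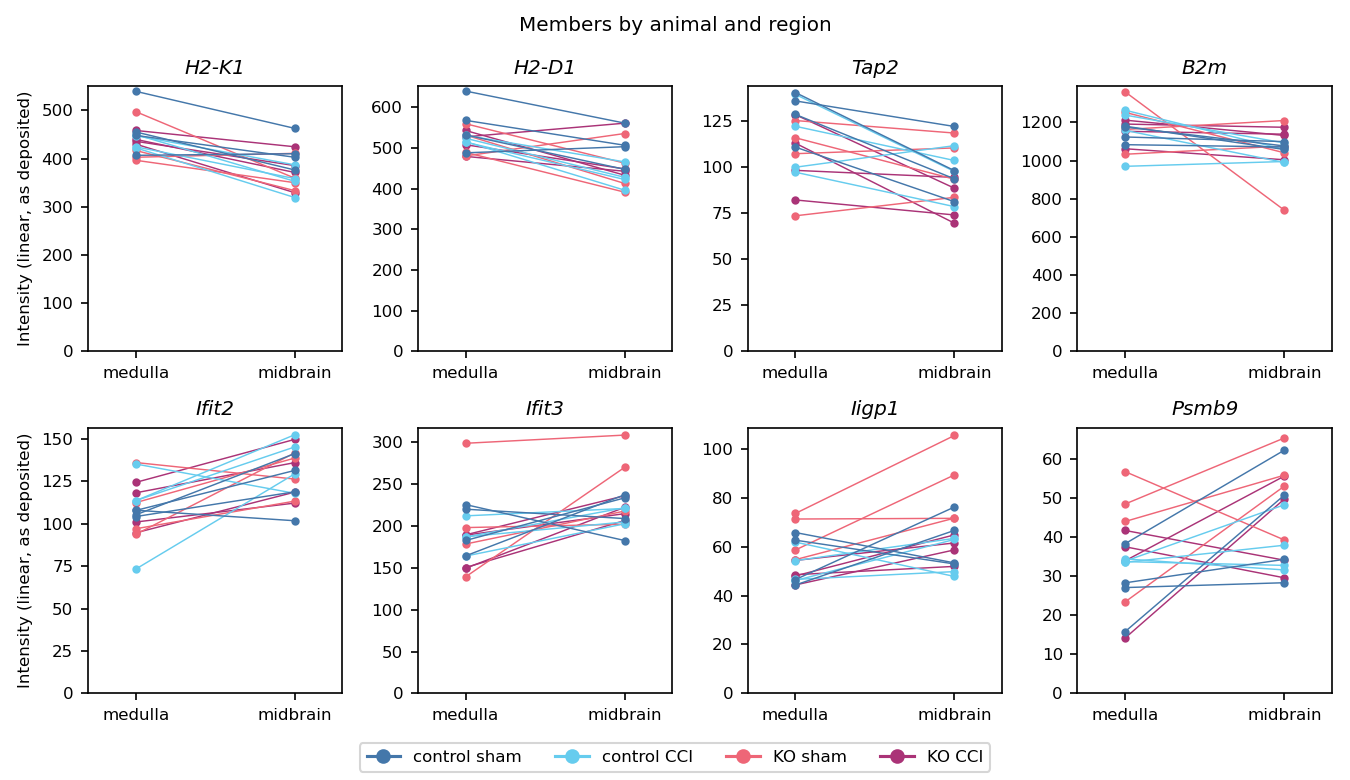
Deposited linear intensity of 8 members in medulla and midbrain, each on its probe set of highest mean, with a line for each of the 16 animals and colours by genotype and operation. Lines for H2-K1 and H2-D1 mostly go down and those for Ifit2 and Ifit3 mostly go up, with overlapping ranges in each panel.

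No MHC class II gene passed between the regions (0 of 9 probe sets). These genes serve antigen-presenting cells such as microglia, border macrophages and dendritic cells. Cd74, the invariant chain, read medians of 131 in medulla and 133 in midbrain, and H2-Aa, an alpha chain, read 139 and 146. H2-Ab1, a beta chain, had the largest estimate, -0.24 (SE 0.11, adjusted p = 0.136), with medians of 101 and 83.3. H2-Eb1 read medians of 48.9 and 55.6. Ciita, the master activator of class II genes, read medians of 24.6 and 27.6 with single arrays down to 2.63.

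The transcription factors gave 0 of 7 probe sets. Irf1, induced by interferon gamma, read medians of 109 in medulla and 118 in midbrain, and 13 of 16 animals were higher in midbrain without passing. Irf7, which amplifies type I interferon, read 56.8 and 56.6, and Irf8, a factor of microglia, 49.6 and 56.4. Irf9 read 55.9 and 57.2, and its partner Stat2 47.0 in medulla and 42.02 in midbrain.

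Among the interferon-inducible GTPases 1 of 9 probe sets passed. Iigp1, an immunity-related GTPase that attacks the vacuoles of intracellular parasites, read 44.3 to 73.5 in medulla (median 54.3) and 47.8 to 105 in midbrain (median 63.1). It rose by 0.18 (SE 0.06, adjusted p = 0.0278), in 11 of 16 animals, and the highest midbrain values, 105 and 89.3, were from KO sham mice. Its call was lost without control sham 4 of the medulla (adjusted p = 0.0510) or of the midbrain (0.0514) and with the animal as a fixed block (0.0593). Its second probe set was higher in midbrain in 8 of 16 animals and did not pass. Medians of Igtp (102 and 102), Irgm1 (109 and 95.3), Gbp2 (47.8 and 46.3), Gbp3 (71.5 and 59.7), Mx1 (34.1 and 39.3) and Mx2 (29.6 and 24.9) in medulla and midbrain belong to members that did not pass. Irgm1 was lower in midbrain in 14 of 16 animals, more than the animals that shared the sign of Iigp1, but its estimate of -0.14 (SE 0.09, adjusted p = 0.289) missed the threshold.

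The antiviral effectors gave 2 of 12, both tetratricopeptide proteins that bind foreign RNA or join complexes on it. Ifit2 read 73.2 to 136 in medulla (median 108) and 102 to 152 in midbrain (median 130.3), and 13 of 16 animals were higher in midbrain. Its difference was 0.23 (SE 0.07, adjusted p = 0.0130). Ifit3 read 139 to 298 in medulla (median 187) and 182 to 308 in midbrain (median 219), also with 13 of 16 animals higher, and rose by 0.25 (SE 0.08, adjusted p = 0.0216). Ifit1, of the same family and with cores 104 and 85 bases before its start, did not pass, with medians of 24.2 in medulla and 19.7 in midbrain. Ifitm3, which blocks viral entry, read medians of 285 and 293, and Bst2, which tethers budding virus, 45.2 and 39.2, and neither passed. Oas1a and Oasl2, of the oligoadenylate synthetase family that senses double-stranded RNA, read medians of 49.9 and 58.6 and of 47.0 and 45.0. Ifi35 read 24.3 and 21.5, Usp18 19.5 and 20.2, and Rsad2 79.4 and 74.2. Oas1a, Oasl2, Ifi35, Usp18 and Rsad2 did not pass either.

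RNA sensors and their regulators gave 0 of 6. Eif2ak2, the kinase PKR that stops translation on double-stranded RNA, read medians of 73.9 and 65.1 and lay at the threshold (difference -0.16, SE 0.06, adjusted p = 0.0511). Ifih1, the sensor MDA5, read 37.9 and 30.96, and Trim25, a ubiquitin ligase of the RIG-I pathway, 59.3 and 54.4.

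Marker probe sets of several cell types passed between the regions, and their part in the differences above was not tested. Their counts are read against the 21.5% of all probe sets called. Those of endothelium and of meninges and fibroblasts lay near that share. Of microglia and macrophage markers 0 of 23 probe sets passed, with 15 genes summing to 3003 to 3841 in medulla and 3009 to 3835 in midbrain. Endothelial markers were lower on 4 of 17 probe sets, from Slc2a1 and Slco1a4, and summed to 2559 to 3057 in medulla and 2318 to 3227 in midbrain. Astrocyte markers passed lower on 8 and higher on 3 of 20, oligodendrocyte markers lower on 10 and higher on 1 of 17, and neuron markers lower on 4 and higher on 2 of 9. Choroid plexus markers were lower on 6 and higher on 1 of 8, and summed to 995 to 10481 in medulla and 332 to 5377 in midbrain. Blood leukocyte markers passed lower on 1 of 18. Markers of meninges and fibroblasts passed higher on 1 probe set, of Aldh1a2, and lower on 2, of Col1a2, out of 12, and summed to 849 to 1586 in medulla and 975 to 1702 in midbrain. Border macrophage markers gave 0 of 8, with sums of 221 to 328 and 232 to 334, and red blood cell markers 0 of 2, with sums of 207 to 1291 and 166 to 526. In such bulk tissue, fewer cells of a type and less RNA per cell cannot be told apart. The array names carry 1 of 3 codes, whose meaning is not given. The first is on the 2 arrays of a control sham animal, too few to fit, the middle code on 14 arrays and the last on 16. Of the member probe sets 2 passed within the middle code and 2 within the last, against 12 with the code as a block. The fits within a code hold fewer arrays, and the share of all probe sets called in them is not given. Those counts are no result about the members. H2-K1 on 1451931_x_at read -0.29 within the middle code (adjusted p = 0.0514) and -0.16 within the last (0.129). Ifit3 read 0.08 within the middle code (0.783) and 0.38 within the last (0.0200), and Iigp1 0.09 (0.641) and 0.28 (0.0362).

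Genes of the same pathways outside the list were split between directions. Their counts are read against the same 21.5% of all probe sets. Of 44 probe sets for other interferon pathway genes 8 passed (18.2%), 3 higher and 5 lower in midbrain. Tlr3, an endosomal sensor of double-stranded RNA, fell by 0.72 (SE 0.05, adjusted p = 2.20e-12) and 0.59 on its probe sets, and Stat3, a signal transducer of cytokines, by 0.23. Pias1, a SUMO ligase, rose by 0.33. Of 61 probe sets for other interferon-stimulated genes 2 passed (3.28%): Isg20, a ribonuclease, fell by 0.47 (adjusted p = 0.0447) and Adar, an RNA editing enzyme, rose by 0.33 (0.0492). Of 39 for other antigen presentation genes 10 passed (25.6%), 4 higher and 6 lower. Psme1, which caps the proteasome, rose by 0.51 (SE 0.05, adjusted p = 1.30e-08), while Tapbp, which bridges class I molecules to the transporter, fell by 0.18 (adjusted p = 2.76e-04) and Cd1d1, which presents lipids, by 0.34 and 0.30.

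With all arrays in the fit, no member passed the threshold for genotype. In medulla, averaged over operation, 0 of 65 member probe sets passed (background 0.053%), and 0 had an unadjusted p under 0.05, as 761 of all 22626 probe sets did. In sham mice there were 0 (background 0.0133%; 3 unadjusted, 865 of all) and in CCI mice 0 (background 0.00442%; 0 unadjusted, 553 of all). The brightest probe sets of the 37 members split evenly, 18 above and 19 below 0, with the extremes at -0.18 and 0.19. The smallest p among members belonged to Tap2, which read 129 ± 13.03 in control sham, 115 ± 19.9 in control CCI, 106 ± 22.5 in KO sham and 106 ± 19.8 in KO CCI medulla (SD, n = 4), with a genotype difference of -0.18 (SE 0.10, adjusted p = 1.0). Next came a pair of H2-D1 probe sets, 1451934_at at 0.17 (SE 0.10) and 1425614_x_at at 0.22 (SE 0.13), both with adjusted p = 1.0. The latter had group means between -7.08 and 1.60, around 0, so no fold is given for it. KO and control ranges overlapped for all 3.

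In midbrain 0 of 65 passed for genotype averaged over operation (background 0.0309%; 6 with an unadjusted p under 0.05, 1690 of all), 0 in sham mice (background 0.0133%; 6 unadjusted, 1917 of all) and 0 in CCI mice (background 0.00884%; 0 unadjusted, 1121 of all). Mx2, a GTPase with antiviral activity, read 16.7 ± 12.9 and 19.6 ± 5.96 in midbrain of the sham and CCI controls (SD, n = 4) and 31.5 ± 3.66 and 29.4 ± 6.08 in that of the KO mice. The lowest control sham array read 0.569 and the highest 31.5, so the groups overlapped, and the difference was 0.45 (SE 0.16, adjusted p = 0.583). H2-D1 on 1450170_x_at read 134 ± 23.001 and 130.4 ± 10.6 in control sham and CCI midbrain and 168 ± 17.7 and 153 ± 25.4 in KO sham and CCI midbrain (difference 0.25, SE 0.09, adjusted p = 0.577). Eif2ak2 read 63.4 ± 7.04 and 60.3 ± 6.65 in the control groups and 75.5 ± 8.53 and 72.1 ± 13.2 in the KO groups (difference 0.18, SE 0.07, adjusted p = 0.632). In sham midbrain 29 of 37 members lay above 0, where 11382 of all 22626 probe sets did, and the KO sham mean there includes the 2 arrays that stood apart. In CCI midbrain 21 of 37 lay above 0, where 10706 of all did. 

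KO sham midbrain holds the 2 arrays that stood apart, and leaving both out, a choice made after the data had been seen, brought 1 member probe set past the threshold. Rsad2 on 1421009_at read 125, 50.1, 107 and 27.7 on KO sham midbrain 1 to 4, against 34.1 to 52.7 in control sham, 26.1 to 39.5 in control CCI and 35.9 to 57.0 in KO CCI midbrain. The arrays left out are the 50.1 and the 27.7, which lie within or near the control range, while both that remain are above every other midbrain array. With all arrays the genotype difference averaged over operation was 0.45 (SE 0.19, adjusted p = 0.637). Without the 2 arrays it was 0.76 (SE 0.11, adjusted p = 0.0175), on a background of 0.278% of all probe sets called, and in sham mice 1.21 (SE 0.17, adjusted p = 0.0341; background 0.0486%). Member probe sets with an unadjusted p under 0.05 numbered 15 averaged over operation (3517 of all) and 13 in sham mice (2382 of all). That fit rests on 2 KO sham arrays, which held the other end of the first principal component of midbrain (20.1 and 21.8). The other probe sets of Rsad2 did not pass for genotype there. On its probe set of highest mean, 1436058_at, the 2 arrays kept read 67.3 and 129, against 57.2 to 98.998 in control sham midbrain. On 1421008_at they read 77.3 and 80.1, against 40.8 to 58.0. H2-D1 on 1450170_x_at, Mx2 and Eif2ak2 did not pass there either (adjusted p = 0.198, 0.297 and 0.436).

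**Figure D3:**
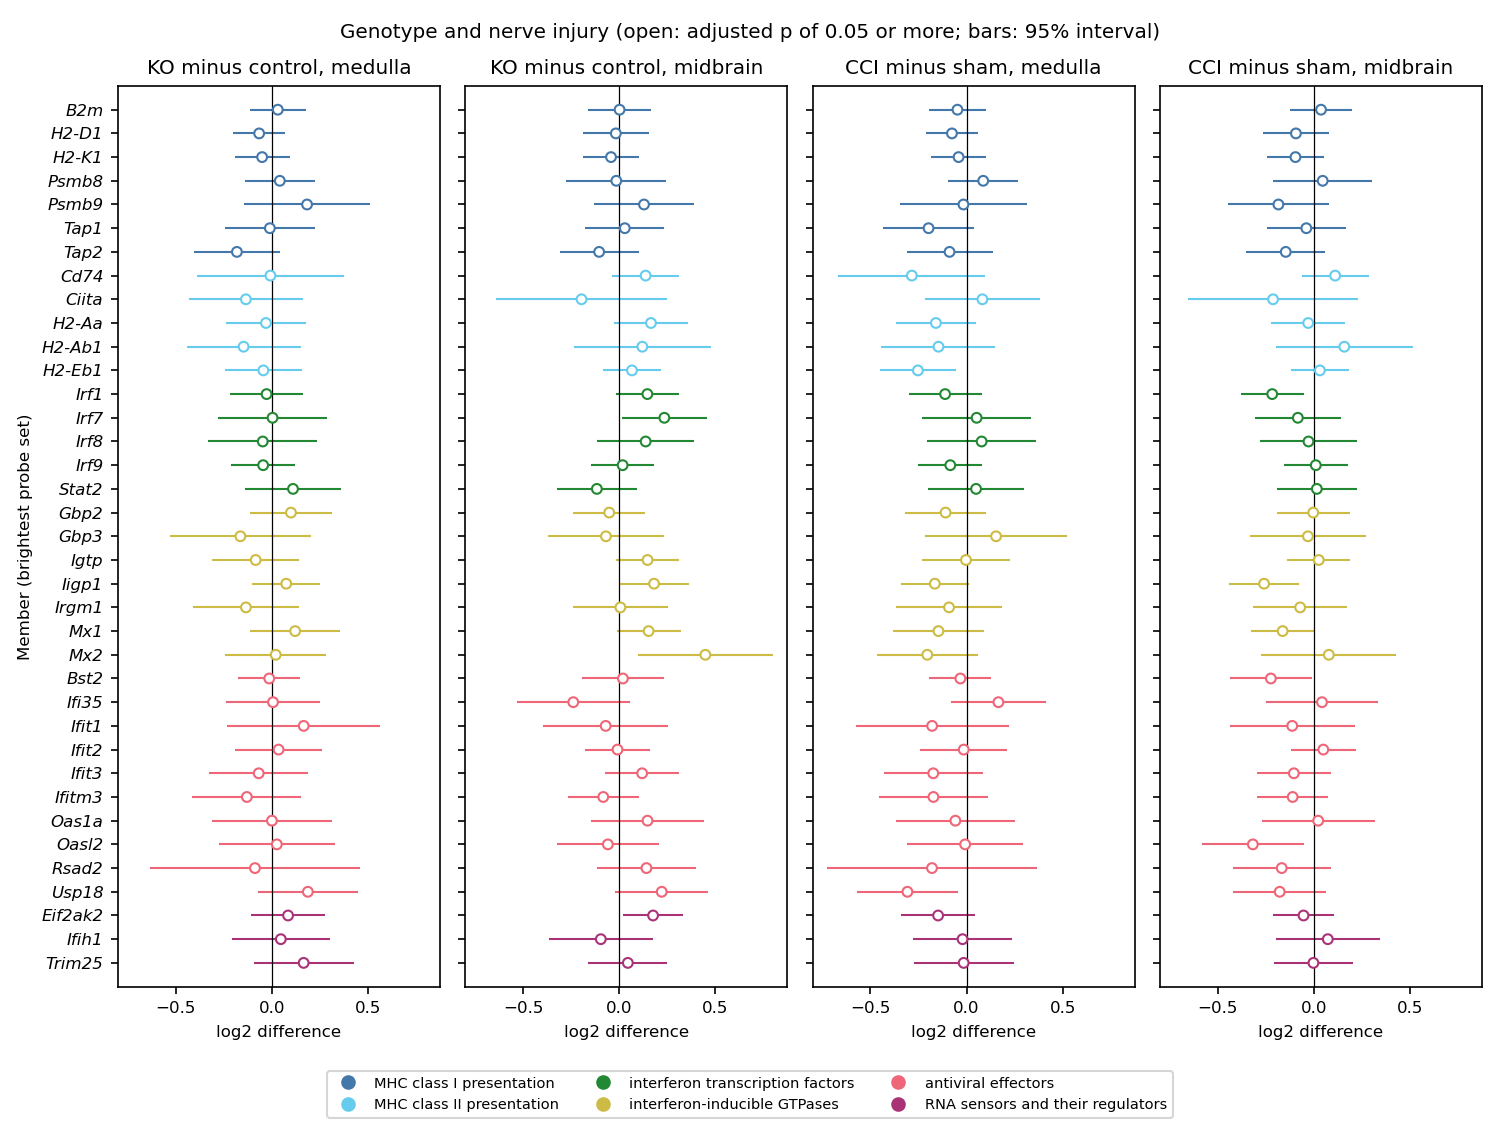
Log2 differences of the 37 members for genotype (averaged over operation) and for CCI (averaged over genotype) in each region, with 95% intervals and colours by role. Every point is open, meaning that 0 passed, and the point farthest from 0 is Mx2 at 0.45 for genotype in midbrain.

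No member passed the threshold for nerve injury. In medulla 0 of 65 passed for CCI averaged over genotype (background 0%; 5 unadjusted, 1010 of all), 0 in control mice (background 0%; 3 unadjusted, 632 of all) and 0 in KO mice (background 0%; 3 unadjusted, 962 of all). Of the 37 members 30 lay below 0 for the average, where 10538 of all 22626 probe sets did, and the median was -0.08 against 0.01 over all probe sets. H2-Eb1, a class II beta chain, read 58.2 ± 10.9 in control sham and 56.2 ± 7.53 in KO sham medulla, and 46.5 ± 8.94 in control CCI and 42.8 ± 8.33 in KO CCI medulla (SD, n = 4). Its estimate was -0.25 (SE 0.09, adjusted p = 0.971). Sham and CCI arrays overlapped in control mice, and in KO mice on the linear scale but not after normalization. Ciita on 1421211_a_at read 5.51 ± 6.06 in control sham and 11.1 ± 3.81 in KO sham medulla, and 16.4 ± 4.75 and 12.9997 ± 2.91 after CCI (0.35, SE 0.10, adjusted p = 0.971). On its probe set of highest mean Ciita gave 0.08. Tap1 on 1420274_at read 10.3 ± 0.966 and 2.08 ± 0.796 in medulla of sham and CCI controls. It read 3.32 ± 5.77 and 1.94 ± 6.42 in that of KO mice, all close to 0 (-0.28, SE 0.11, adjusted p = 0.971). Usp18, which restrains the type I interferon receptor, had the lowest estimate of the 37, -0.31 (SE 0.12, adjusted p = 0.971).

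In midbrain 0 of 65 passed for CCI averaged over genotype (background 0%; 6 unadjusted, 1073 of all), 0 in control mice (background 0%; 4 unadjusted, 681 of all) and 0 in KO mice (background 0%; 6 unadjusted, 1864 of all). Iigp1 read 62.3 ± 11.2 in control sham and 84.5 ± 16.3 in KO sham midbrain, and 56.0 ± 8.33 in control CCI and 59.2 ± 5.47 in KO CCI midbrain (SD, n = 4). KO sham arrays read 71.5 to 105 and KO CCI arrays 51.9 to 64.8, and the averaged estimate was -0.26 (SE 0.09, adjusted p = 0.955). Irf1 read 115 ± 13.1 and 133 ± 14.9 in control and KO sham midbrain and 100.03 ± 13.6 and 111 ± 14.3 after CCI (-0.22, SE 0.08, adjusted p = 0.955). H2-Ab1 on 1451721_a_at read 31.7 ± 2.52 and 30.4 ± 3.72 in the sham groups and 36.3 ± 2.20 and 36.1 ± 6.14 after CCI (0.17, SE 0.06, adjusted p = 0.955). Microglia and macrophage markers gave 0 of 23 for CCI in either region.

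The tests of differences between these effects gave 0 member probe sets each, on a background of 0%. For the genotype by CCI interaction 3 of 65 had an unadjusted p under 0.05 in medulla (601 of all) and 2 in midbrain (1239 of all). The lowest in medulla was Eif2ak2 (-0.52, SE 0.18, adjusted p = 1.0), which read 71.7 ± 15.7 in control sham, 78.9 ± 14.1 in control CCI, 94.1 ± 10.5 in KO sham and 67.1 ± 5.998 in KO CCI medulla. KO sham arrays read 81.5 to 107 and KO CCI arrays 60.4 to 74.8. The lowest in midbrain was Irf9 (-0.37, SE 0.15, adjusted p = 0.822). For genotype by region 1 was under 0.05 unadjusted (861 of all) and for CCI by region 2 (488 of all).

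Outside the list, other interferon pathway and antigen presentation genes gave 0 calls for genotype, CCI or their interaction. Other interferon-stimulated genes gave 1 of 61, for genotype averaged in midbrain: Trim34a on 1424857_a_at (-1.19, SE 0.16, adjusted p = 0.0110), on a background of 0.0309%. Trim34a lies on the same chromosome as Cckbr (RefSeq, GRCm38.p6).

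**Figure D4:**
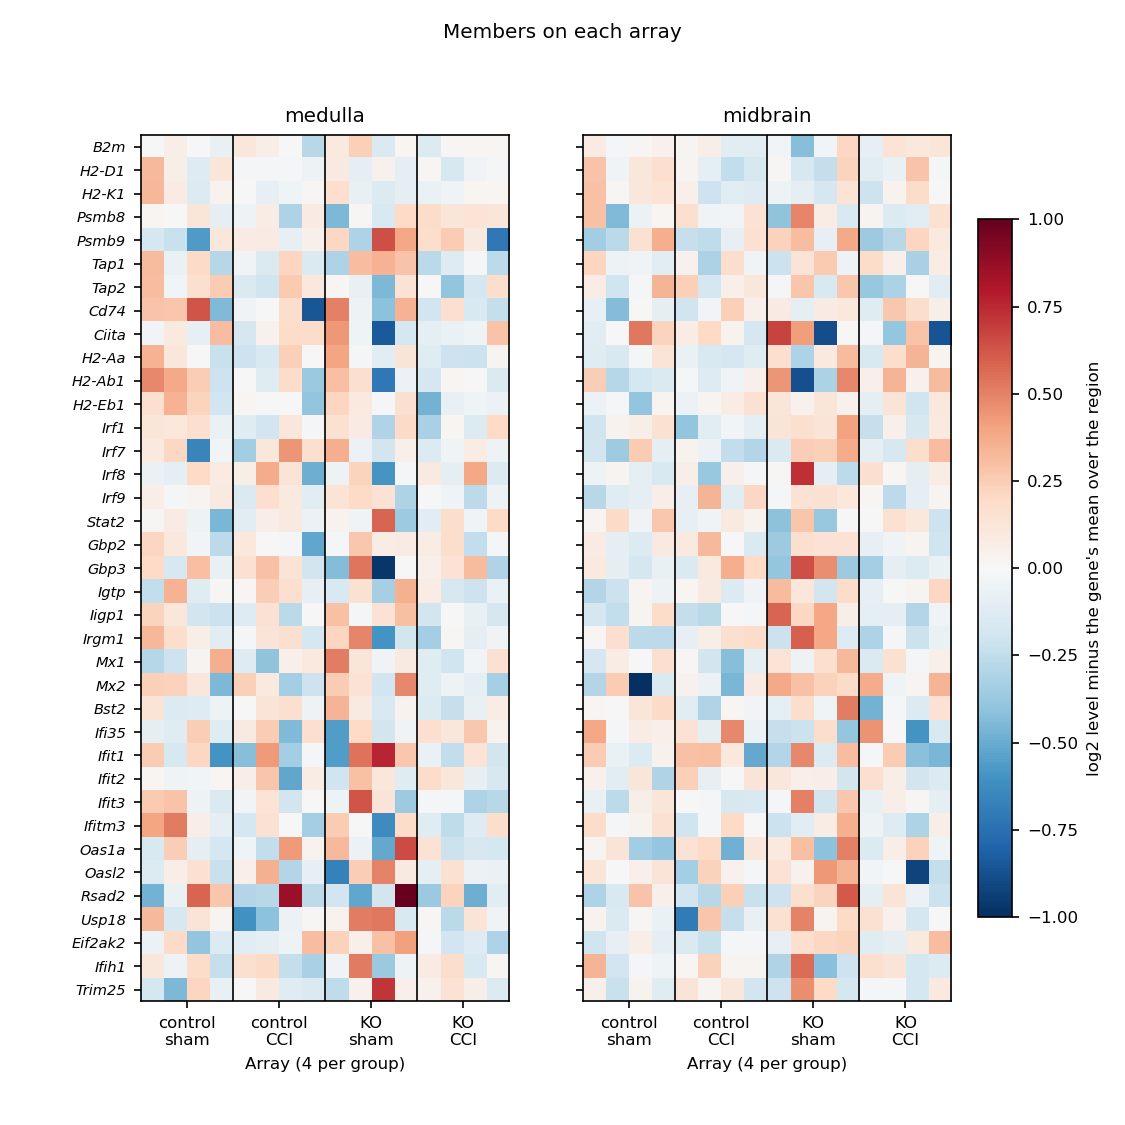
Log2 level of each of the 37 members on each array minus the gene's mean over the region, in rows by role and in columns by group, an animal holding the same column in both panels, with colours that stop at 1 above or below the mean. No column block is uniformly red or blue, and the strongest single cells include Rsad2 on KO sham medulla 4 and control CCI medulla 3.

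Because each animal gave both regions, variation between animals of a group could be set against that between an animal's own arrays. An animal's arrays also share the array code, so such a test cannot tell variation between animals from that between codes. A test for animal within group over all 32 arrays, added after the data had been seen, called 2 of 65 member probe sets, or 3.08% against a background of 5.27%. The share called was no larger than over the array, so the count is no result about the members. Rsad2, the antiviral enzyme viperin, read highest in 1 KO sham animal, at 246 in medulla and 129 in midbrain. A control CCI animal read 183 and 94.8, a control sham animal 151 and 98.998, and a KO CCI animal 113 and 88.6, each the highest of its group in both regions. The lowest medulla value was 60.5 and the lowest midbrain value 57.2. In 14 of 16 animals both arrays lay on the same side of their group means (F = 4.98, adjusted p = 0.0485). That count does not set the called members apart. It was also 14 for H2-D1 on 1451784_x_at and Tap1 on 1448177_at, which did not pass the animal test (adjusted p = 0.180 and 0.173). Leaving out single animals ended the Rsad2 call in 15 of 16 cases (adjusted p up to 0.0839), and pairing by title number gave 0.249. The other Rsad2 probe sets did not pass (adjusted p = 0.143 and 0.345), although the same KO sham animal read 91.3 in medulla and 107 in midbrain on 1421009_at and 84.2 and 80.1 on 1421008_at.

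Ifih1 gave the other call (F = 7.27, adjusted p = 0.0176), again with 14 of 16 animals on the same side. A KO sham animal read 59.5 in medulla and 50.4 in midbrain, and another read 22.4 and 18.5, while the remaining 14 animals lay between 25.4 and 42.6 in medulla and 23.9 and 42.3 in midbrain. The midbrain array of the first is KO sham midbrain 2, and the arrays of the second are KO sham medulla 3 and midbrain 4, all among those that stood apart. Without the first animal the adjusted p was 0.129, and without the second 0.0425. Pairing by title number gave 0.0675. On the log2 scale, every midbrain array of the last array code read below its group mean for Ifih1. In medulla all but control sham 3 did, and animal and code cannot be told apart.

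**Figure D5:**
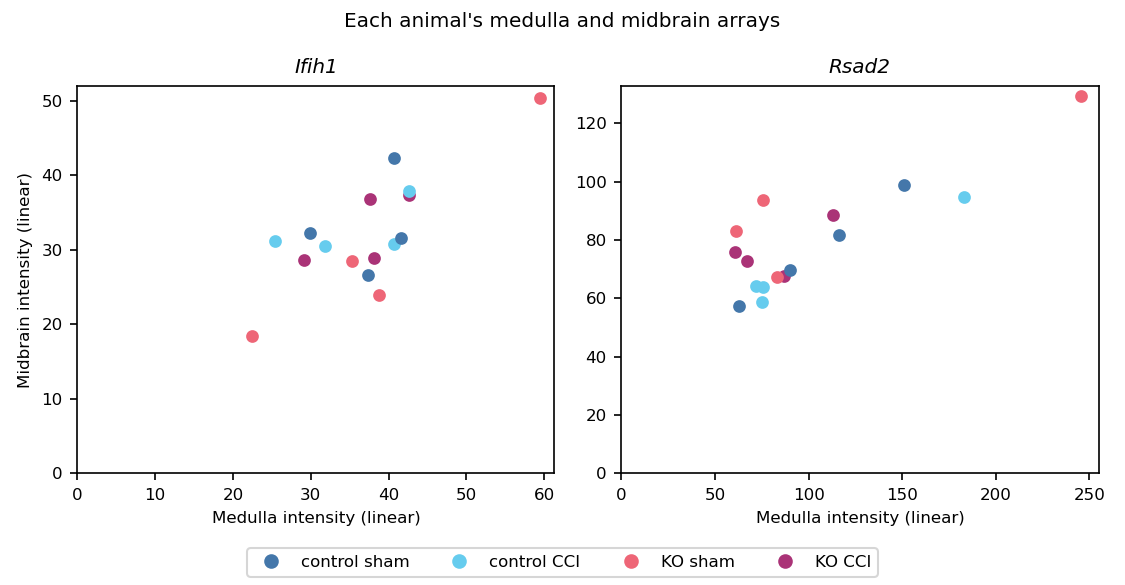
Medulla against midbrain intensity (linear, as deposited) of Ifih1 and Rsad2 for the 16 animals, coloured by genotype and operation. For Rsad2 a KO sham animal lies at 246 and 129, and for Ifih1 KO sham animals hold both ends of the cloud.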

How the data were processed

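Total RNA of medulla and midbrain was measured on a short-oligonucleotide expression array; per the labels' protocols it was extracted with Trizol and labelled as biotinylated cRNA. The authors deposited 1 linear intensity per probe set and array, some below 0, and the software and scaling behind it are not given in the sources used here. Probe sets were named through the platform annotation supplied with the data. Values under 0 were set to 0, 16 was added, log2 was taken and arrays were quantile normalized. The 64 control probe sets were left out, and 22626 were tested with no filter on brightness. limma 3.58.1 (R 4.3.3; lmFit, eBayes, both tails, Benjamini-Hochberg) was fitted to the 16 arrays of a region, or to all 32 for comparisons between regions, with 1 mean per group. An adjusted p under 0.05 counted as a call. Intervals are 95%. The 4 arrays per group limit the precision: the median SE over all probe sets was 0.10 for an averaged genotype effect and 0.07 for region.

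The design text says that both regions came from each animal, and consecutive array numbers were taken to give the pairs. Residuals of paired arrays correlated at 0.17 on average (-0.05 to 0.36, 10 of 16 over 0.1), and at 0.14 when paired by title number. Title numbers 3 and 4 of the KO sham mice give other pairs. The animal was not in the main region fit and was tried as a block. Other alternatives were median centring, other pseudocounts (1 and 64), the order of floor and normalization, a filter on the dimmest 33.3%, a trended robust variance, array weights, the array code, the brightest probe set of a gene, and each array left out. The animal test, the fixed animal block and the omission of 2 KO sham midbrain arrays were added after the data had been seen.

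Members and lists were chosen with earlier results of these data known. Members were named in full where a probe set passed in any comparison or had 1 of the 3 lowest adjusted p of the members for averaged genotype or CCI in a region, and the rest by range or count. Where adjusted p were tied, the unadjusted p set the order. From other lists up to 5 genes past the threshold were named per comparison. The level of a member is its probe set of highest mean. Scripts were tested on simulated data, and figures were drawn with matplotlib.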

Additional observations from a re-analysis of the deposited data

Results flagged for a closer look

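On the log2 scale, Dixon's test of the highest or lowest array in a group of 4 marked 19 of 296 groups of member levels (6.42%, against 14.8 groups that chance at 1 in 20 would give). Of the 19 marks 6 fell in KO CCI medulla, 3 each in control CCI medulla, control CCI midbrain and KO sham midbrain, and 0 in control sham midbrain. KO CCI medulla 1 held 3 of them (B2m, H2-Eb1 and Oas1a), and the midbrain array of the same animal 1 more. No cause was tested.

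In MHC class I presentation, B2m was low on KO CCI medulla 1 (1062, others 1154 to 1212) and on KO CCI midbrain 1 (1005, others 1132 to 1175), which come from the same animal. Psmb9 was low on KO CCI medulla 4 (14.2, others 33.9 to 41.7) and Tap1 on KO sham medulla 1 (18.9, others 32.8 to 33.5).

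Among the class II genes, Cd74 was low on KO sham midbrain 2 (112, others 138 to 140.1) and Ciita high on KO CCI medulla 4 (35.5, others 22.2 to 23.7). H2-Eb1 was low on control CCI medulla 4 (33.7) and on KO CCI medulla 1 (30.4).

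Of the transcription factors, Irf1 was high on KO sham midbrain 3 (155), Irf8 low on control CCI midbrain 2 (37.97) and Irf9 low on KO sham medulla 4 (42.4). The GTPase Gbp2 was low on KO sham midbrain 1 (33.6).

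Of the effectors and sensors, Rsad2 was high on control CCI medulla 3 (183, others 72.0 to 75.5), the animal named above. Ifi35 was high on control sham medulla 3 (28.6), Oas1a low on control CCI midbrain 3 (31.9) and high on KO CCI medulla 1 (60.8), and Oasl2 high on KO CCI medulla 2 (54.5). Eif2ak2 was high on control CCI medulla 4 (99.3) and Ifih1 on control CCI midbrain 2 (37.9, others 30.5 to 31.2).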

How the results depend on the processing

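For genotype, CCI and their interactions, 0 member probe sets passed under each alternative and each omission of an array, except without 2 KO sham midbrain arrays: there 1 passed for genotype averaged over operation in midbrain and 1 for genotype in sham midbrain, Rsad2 on 1421009_at in both. Between regions the count of 11 ranged from 9 to 13 with an array left out, and was 2 within the array code on 14 arrays and 2 within that on 16, while the code on 2 arrays could not be fitted alone. Other alternatives gave 8 to 16. The count was 12 with the title number as a replicate block, 14 with the animal as a random replicate block and 11 with the animal as a fixed replicate block, which kept 9 of the calls and lost Iigp1 and Psmb9 and no other. The title numbers do not pair arrays within a region: residuals of arrays with the same number correlated at 0.05 on average, with 16 of 48 pairs over 0.1. The animal test gave 2 calls, 1 to 3 with an animal left out (1 in 12 of 16 cases) and 0 with animals paired by title number. Fits within a code, with fewer arrays, ended all but 1 or 2 calls, and the share of all probe sets called in them is not given. Most members are dim, and 4 arrays per group leave estimates with a median SE of 0.12 for members in the averaged CCI comparison of medulla. A call needed an adjusted p under 0.05 over all probe sets tested, so an interval that left out 0 was not enough. For the genotype by CCI interaction in medulla, Eif2ak2 on its probe set of highest mean read -0.52 (95% interval -0.907 to -0.137). It did not pass. Differences smaller than the intervals, and some that were larger, could thus be missed.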
